A study of Mus musculus with 5 samples.

Results

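Transcripts of 10 genes for granule proteins of neutrophils and for the cytosolic S100 proteins of the same cells were followed in sorted hematopoietic stem cells (HSCs). The genes were the S100 genes S100a8 and S100a9, the specific granule genes Camp, Ngp, Ltf and Lcn2, and the azurophil granule genes Mpo, Elane, Prtn3 and Ctsg. They were chosen by name, with earlier results of these data known. Each was read by the probe sets annotated to that gene alone, which gave 1 probe set for each of the 10 genes. The array held 18193 genes that could be read in this way. The genotypes compared were Atxn1L null (Atxn1L-/-) in 2 arrays and WT in 3 arrays, all from C57Bl/6 mice. The labels give an age of 6 to 8 weeks for all mice, and no treatment was given to either genotype. The null mice carry a knockout allele of Atxn1L, so that the HSCs developed in animals without the gene in other cells too. Both genotypes were sorted through the same gate, as lineage-negative, c-Kit+ and Sca-1+ (KSL) cells that were positive for CD150 and lay in the side population, the cells that pump out Hoechst dye. Cells were pooled for each array, and the sources used here do not state how many mice made up a pool.

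Neutrophils fill their granules in sequence as they mature in the bone marrow. Myeloperoxidase and the serine proteases of azurophil granules are made first, in promyelocytes, and lactoferrin, cathelicidin, lipocalin 2 and neutrophilic granule protein are made next, in myelocytes, and packed into specific granules. S100a8 and S100a9 form the heterodimer calprotectin, which fills the cytosol of mature neutrophils. Long-term HSCs lie upstream of this program, and the lineage cocktail used in their purification holds antibodies against surface antigens of granulocytes, not against granule proteins.

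The values were those of the deposited table, a log2 GCRMA value for each probe set of an Affymetrix mouse array, so that a difference of 1 is a doubling. The array medians ran from 3.03 to 3.07, and a mean below 5 is called dim here. The correlation between the arrays ran from 0.989 to 0.995. The targeted gene Atxn1l read 3.08 and 3.99 in null pools, against 6.80, 6.69 and 4.98 in WT pools, at its probe set with the highest mean. There WT 3 was the WT pool nearest to the null pools. Another Atxn1l probe set read 3.23 and 3.65 in null pools, against 6.31, 6.52 and 5.74 in WT pools. On it WT 3 was again the lowest WT pool, but lay closer to the other WT pools than to the null pools. The Gapdh control probe sets, which read the ends of 1 transcript, gave a 3' minus 5' excess of 7.33 and 7.21 in null pools, against 5.89, 6.02 and 5.92 in WT pools. The 5' reading was dim in null pools, at 4.63 and 4.78. This excess split the arrays by genotype, so that a genotype difference given below cannot be told apart from a difference in RNA quality or amplification. Of the HSC markers, Procr, a surface receptor of HSCs, read 13.23 and 13.54 in null pools, against 13.55, 13.64 and 13.54 in WT pools, and Mecom, a transcription factor of HSCs, read 10.88 and 10.54 in null pools, against 10.46, 11.09 and 11.26 in WT pools. Slamf1, which encodes CD150 and was chosen after its values were seen, was dim on every array. The lineage gene Itgam, which encodes the myeloid antigen CD11b, read 2.54 on both null arrays and 2.51 to 2.55 on WT arrays, near the floor of the scale, as did the T cell genes Cd3e, Cd4 and Cd8a, at 1.87 to 3.07 in null pools and 1.87 to 3.07 in WT pools.

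The members sit at several places in the genome, and some are neighbors. In the RefSeq annotation of GRCm38.p6, S100a8 and S100a9 lay next to each other on chromosome 3 with 0 annotated genes between them, and Prtn3 and Elane lay next to each other on chromosome 10, likewise with 0 genes between them. Camp, Ngp and Ltf lay on chromosome 9, with 18 genes between Camp and Ngp and 25 between Ngp and Ltf. Lcn2 was on chromosome 2, Mpo on chromosome 11 and Ctsg on chromosome 14. The promoters of all 10 genes, 250 bases before to 50 bases after the annotated start, were searched on both strands for motifs of 3 families of transcription factor that act in granulocyte development. These were the C/EBP-type motif TTNNGNAA, the PU.1-type motif GAGGAA and the RUNX-type motif TGTGGT. The C/EBP-type motif was found in 5 of the 10 promoters, those of S100a8, S100a9, Ngp, Ltf and Lcn2, and in 40.7% of all 32851 promoters. It was found in none of the 4 azurophil granule promoters. The PU.1-type motif was found in 7 of 10, among them those of Mpo, Elane, Prtn3 and Ctsg, and in 28.3% of all promoters. The RUNX-type motif was found in those of Ctsg, Ltf and S100a9, 3 of 10, and in 16.8% of all promoters. The promoter of Camp held none of the 3 motifs, and 0 pairs of the 21 matches overlapped. A match describes letters in the window and is not a measured site. Promoters are shown for 4 members, the specific granule genes Ngp and Ltf, S100a9, and Mpo, the azurophil granule gene with the largest genotype difference. Null 1 and WT 3 were the highest arrays for these 4, as given below, but also for other members. Camp, which held no match, was among them. A link between motifs and this order was not tested, and the promoters shown are examples. Each is the 250 bases before the start, 5′ to 3′ on the strand of the gene, from RefSeq GRCm38.p6, with every match of the 3 motifs in capitals.
Ngp, chr9:110419558-110419807, plus strand: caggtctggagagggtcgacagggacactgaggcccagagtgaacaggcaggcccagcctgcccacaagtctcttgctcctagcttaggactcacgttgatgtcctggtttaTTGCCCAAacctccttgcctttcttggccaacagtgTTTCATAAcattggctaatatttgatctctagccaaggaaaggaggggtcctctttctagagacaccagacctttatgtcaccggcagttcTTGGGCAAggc
Ltf, chr9:111019042-111019291, plus strand: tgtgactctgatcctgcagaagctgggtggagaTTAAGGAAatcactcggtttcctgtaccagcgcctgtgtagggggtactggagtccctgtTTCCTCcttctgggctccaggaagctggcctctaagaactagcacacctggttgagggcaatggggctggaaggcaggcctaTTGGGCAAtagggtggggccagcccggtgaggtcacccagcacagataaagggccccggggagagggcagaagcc
S100a9, chr3:90695722-90695971, minus strand: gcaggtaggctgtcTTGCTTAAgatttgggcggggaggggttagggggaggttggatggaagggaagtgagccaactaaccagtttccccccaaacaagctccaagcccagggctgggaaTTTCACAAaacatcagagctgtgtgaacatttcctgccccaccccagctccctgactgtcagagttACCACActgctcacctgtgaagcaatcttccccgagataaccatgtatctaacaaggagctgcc
Mpo, chr11:87793534-87793783, plus strand: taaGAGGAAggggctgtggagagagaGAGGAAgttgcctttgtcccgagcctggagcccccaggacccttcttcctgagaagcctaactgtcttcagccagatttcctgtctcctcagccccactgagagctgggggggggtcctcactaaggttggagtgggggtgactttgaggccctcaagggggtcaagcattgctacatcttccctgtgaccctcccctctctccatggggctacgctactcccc
In Ngp the capitals are 3 matches of the C/EBP-type motif, of which the last begins 11 bases before the start. In Ltf they are C/EBP-type matches that begin 217 and 75 bases before the start, with a PU.1-type match between them. The RUNX-type match of Ltf lies after the start, outside the bases shown. In S100a9 a pair of C/EBP-type matches is followed by a RUNX-type match that begins 64 bases before the start, and in Mpo a pair of PU.1-type matches begins 247 and 224 bases before it.

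No member differed between Atxn1L null and WT HSCs beyond the spread of the pools. A gene was called at an unadjusted limma p of 0.05 or less together with a fold of at least 1.5. These are the thresholds of the study. Its methods name a correction for false discovery, but do not say whether the p at this threshold was the corrected one. At this criterion, 0 of 10 members were higher and 0 were lower in null HSCs, where 3.00% of the 18193 genes passed (1.57% higher and 1.43% lower). At an unadjusted p under 0.05 alone, 0 of 10 members were called, against 7.44% of all genes, and the lowest p among the members was 0.197, that of Prtn3 in limma. This count became 1 under 2 alternatives, for a member that did not reach the fold. Prtn3 had an unadjusted limma p of 0.0150 with the replicate number as a block (adjusted p = 0.654), and Ctsg had 0.0322 without WT 3 (adjusted p = 0.939). At an adjusted p under 0.05, 0 of 10 members and 0.00% of all genes were called, and the limma adjusted p was 1 for every member. The groups overlapped for all 10 members, where 17.5% of all genes had groups that did not overlap. S100a9 and Mpo alone reached the fold of 1.5, which 6.08% of all genes reached without regard to p. These shares of all genes include dim genes, which move little, while all members but Elane were bright. The median size of the difference was 0.043 over all genes, but 0.24 over the 7070 genes with a mean of at least 5. Of the 10 differences, 5 lay above 0 and 5 below, with a median of -0.0032 on the log2 scale, beside -0.0019 over all genes. In pools of sorted cells, fewer cells of a type and less RNA per cell cannot be told apart, and the p-values measure only the spread between these pools.

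**Figure D1:**
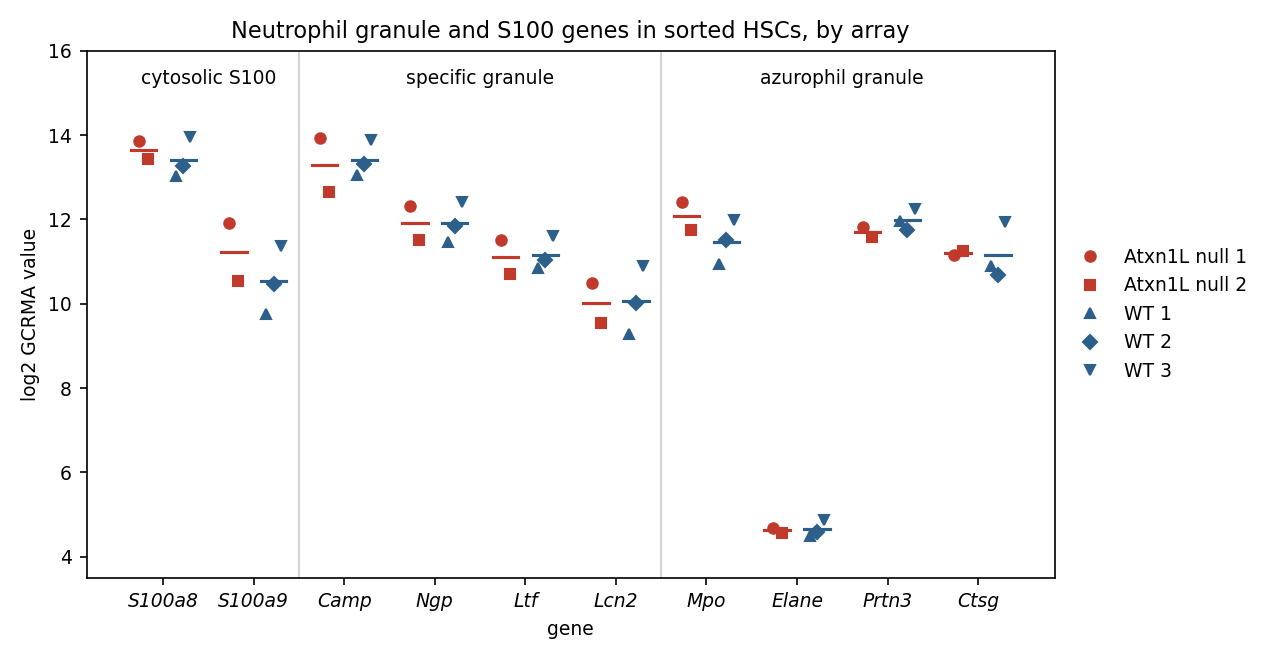
Log2 GCRMA value (vertical axis) of each of the 10 genes (horizontal axis), a symbol per array and a horizontal line at the mean of each genotype, Atxn1L null in red (n = 2) and WT in blue (n = 3). The groups overlap for all 10 genes, and the symbols of null 1 and WT 3 are the upper ones of their genotype for all 6 S100 and specific granule genes.

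S100a8 and S100a9 encode the subunits of calprotectin, a calcium-binding protein that withholds zinc and manganese from microbes. S100a8 read 13.87 and 13.44 in null pools, against 13.03, 13.27 and 13.95 in WT pools. Both null values lay inside the WT range. The means were 13.65 ± 0.30 (SD, n = 2) in null and 13.42 ± 0.47 (SD, n = 3) in WT HSCs, a difference of 0.24 with a 95% interval of -0.75 to 1.22. S100a9 had the largest difference among the members. It read 11.92 and 10.53 in null pools, against 9.77, 10.47 and 11.38 in WT pools, so that null 1 was the highest of the arrays and null 2 lay close to WT 2. The means were 11.23 ± 0.98 (SD, n = 2) in null and 10.54 ± 0.81 (SD, n = 3) in WT HSCs. The difference was 0.69 (SE 0.71, limma adjusted p = 1), or 1.61-fold, and its 95% interval ran from 0.398-fold to 6.51-fold. Without null 1 the S100a9 difference was -0.01, and without null 2 it was 1.38, so that its sign and size turned on which null pool was used. The S100a8 probe set carries the suffix that Affymetrix gives to probe sets that can match several transcripts.

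The 4 specific granule genes had nearly equal means in the genotypes. Camp encodes the cathelicidin CRAMP, an antimicrobial peptide cut from a precursor. It read 13.92 and 12.65 in null pools, against 13.05, 13.31 and 13.88 in WT pools, and the null pools held both the highest and the lowest value. Ngp, neutrophilic granule protein, a member of the cystatin family, read 12.33 and 11.51 in null pools, against 11.47, 11.83 and 12.42 in WT pools, and its difference was 0.01 with a 95% interval of -1.18 to 1.20. Ltf, which encodes the iron-binding protein lactoferrin, read 11.50 and 10.70 in null pools, against 10.84, 11.04 and 11.62 in WT pools. For Ltf, as for Camp and Ngp, null 1 and WT 3 were the highest arrays. Lcn2, which encodes lipocalin 2, a protein that binds the iron carriers of bacteria, read 10.49 and 9.54 in null pools, against 9.29, 10.03 and 10.90 in WT pools. The differences of Camp, Ltf and Lcn2 were -0.13, -0.06 and -0.06, and the widest interval, that of Lcn2, ran from -1.83 to 1.71. These intervals leave room for changes past 2-fold in either direction for all 4 genes, so that equal means were not shown to be equal levels.

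The azurophil granule genes did not share 1 order over the arrays. Mpo, the enzyme that makes hypochlorous acid from hydrogen peroxide, read 12.42 and 11.75 in null pools, against 10.93, 11.52 and 11.98 in WT pools. Null 1 was above every WT array and null 2 was below WT 3 alone. The means of Mpo were 12.09 ± 0.48 (SD, n = 2) in null and 11.48 ± 0.52 (SD, n = 3) in WT HSCs, a difference of 0.61 (SE 0.41, limma adjusted p = 1), or 1.53-fold, and it stayed above 0 whichever array was left out, at 0.27 to 0.95. Prtn3, which encodes proteinase 3, went the other way and read 11.82 and 11.58 in null pools, against 11.97, 11.75 and 12.24 in WT pools. Its difference was -0.29 (SE 0.18), and it stayed below 0 whichever array was left out. Ctsg, which encodes the serine protease cathepsin G, read 11.16 and 11.25 in null pools, against 10.90, 10.67 and 11.93 in WT pools, and both null values lay inside the WT range. Its null pools were the closest to each other of all bright members and its WT pools among the farthest apart. Elane, the gene of neutrophil elastase, was dim, with 4.69 and 4.57 in null pools, against 4.50, 4.58 and 4.86 in WT pools. It therefore bears little on the comparison, although it neighbors Prtn3 in the genome, whose probe set was bright on all arrays.

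**Figure D2:**
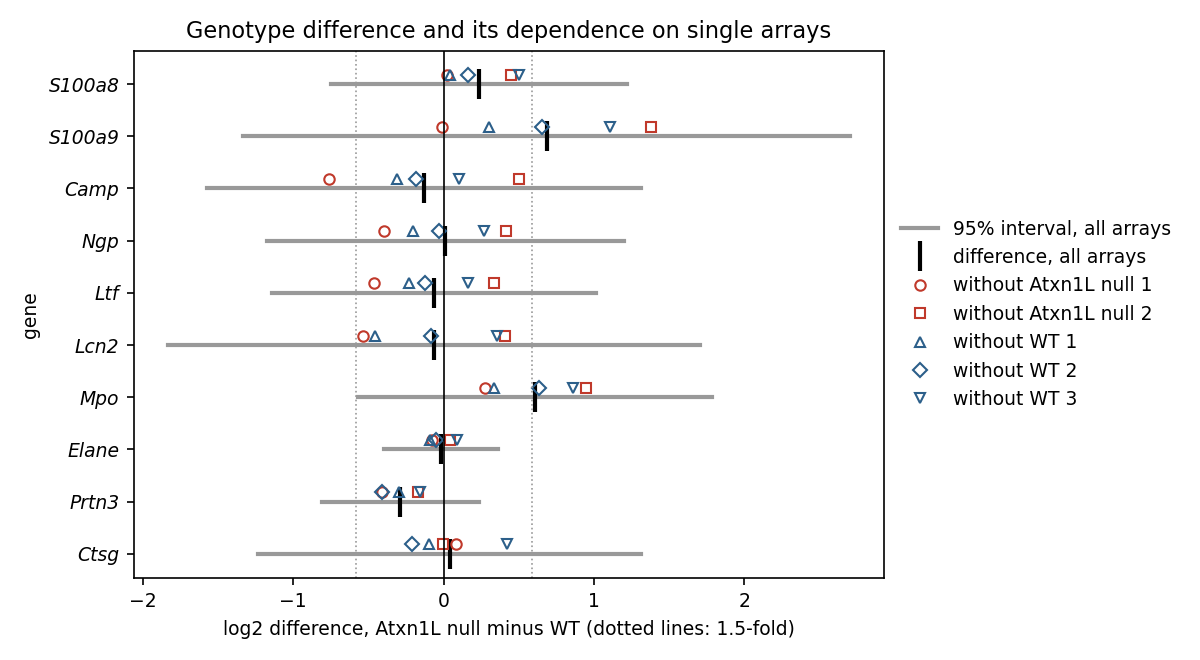
Log2 difference, Atxn1L null minus WT (horizontal axis), for each gene (vertical axis), with the 95% interval of the limma fit on all 5 arrays as a gray bar, the estimate as a black tick and the estimate without each array as an open symbol. Every interval spans 0, and the estimates without null 1 and without null 2 lie on opposite sides of 0 for Camp, Ngp, Ltf and Lcn2, and at -0.01 and 1.38 for S100a9.

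For most members the pools of 1 genotype lay farther apart than the genotype means. The distance of the null pools from each other exceeded the genotype difference for 9 of 10 members, Prtn3 being the exception, and the range of the WT pools exceeded it for 10 of 10. Of the 7070 genes with a mean of at least 5, the null distance exceeded the genotype difference for 53.3% and the WT range did so for 62.4%, and the median size of the genotype difference was 0.24. Null 1 was above null 2 for 9 of 10 members, by 1.39 (2.63-fold) for S100a9, 1.27 (2.41-fold) for Camp, 0.95 for Lcn2 and 0.81 for Ngp. Ctsg was the exception, at -0.08. The median gap, null 1 minus null 2, was 0.74 over the 10 members and 0.88 over the S100 and specific granule members, and over the same 7070 genes it was 0.0010, with a median size of 0.26. The null 1 array was therefore not higher over genes at large. Among the WT pools, WT 3 was the highest for 10 of 10 members and WT 1 the lowest for 8 of 10, beside 31.5% and 31.3% of those genes. The WT range was 1.61 for Lcn2 (3.06-fold), 1.61 for S100a9 (3.05-fold), 1.26 for Ctsg and 1.04 for Mpo, with a median of 0.93 over the members, beside 0.36 over the genes with a mean of at least 5.

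Null 1 and WT 3 together held the highest values of 8 of 10 members, including all 6 of the S100 and specific granule genes. Of the genes with a mean of at least 5, 5.66% had this order. The order was read from these arrays, so its count describes the members and tests nothing. The members outside it were Prtn3, where WT 1 took the place of null 1, and Ctsg, where null 2 did. Centred on the mean of each gene, the average of the 6 S100 and specific granule genes was 0.54 in null 1 and -0.40 in null 2, against -0.56 in WT 1, -0.14 in WT 2 and 0.56 in WT 3. Each of the 6 was set against the average of the other 5, so that no gene was compared with itself. Ngp lay closest, with a root mean square difference of 0.10 over the 5 arrays, followed by Ltf at 0.17, Camp and Lcn2 at 0.22, and S100a8 at 0.23. S100a9 kept the order with wider swings and lay at 0.42. Set against the average of all 6, Mpo lay at 0.27, Elane at 0.36, Ctsg at 0.39 and Prtn3 at 0.41. On that average, which includes S100a9 itself, S100a9 lay at 0.35, between Mpo and Elane.

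**Figure D3:**
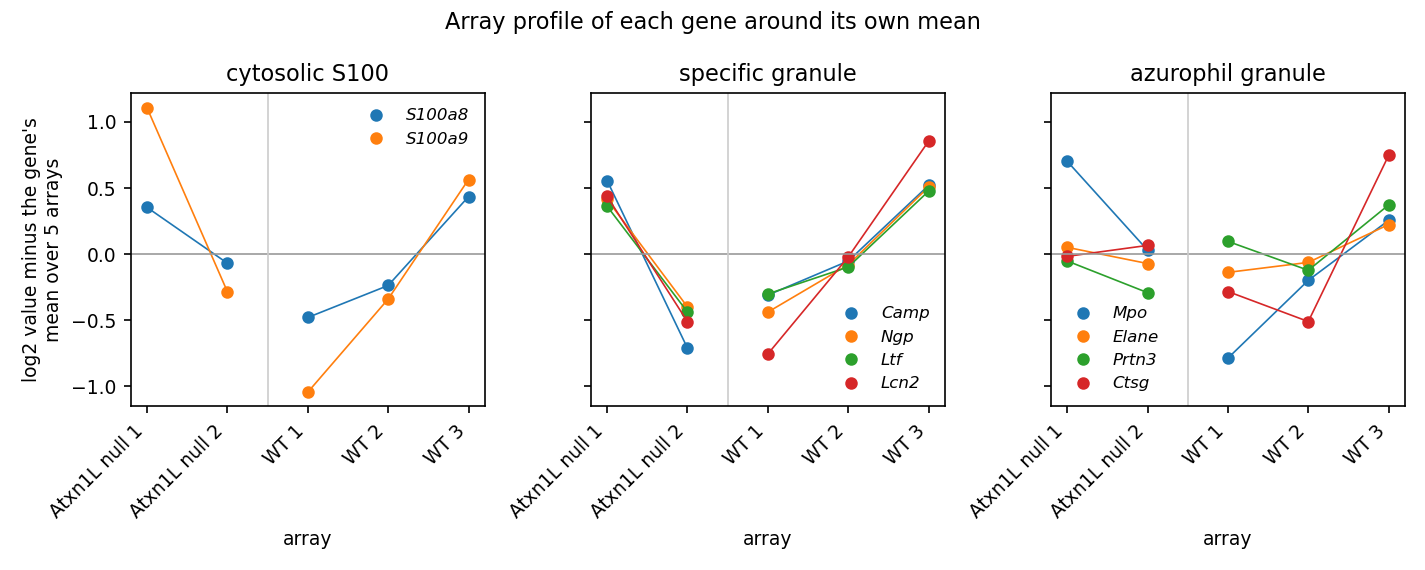
Log2 value of each gene minus its mean over the 5 arrays (vertical axis) on each array (horizontal axis), for the S100, specific granule and azurophil granule genes. Lines join the points of 1 gene within a genotype and stand for no order of the pools, and the S100 and specific granule genes are high in null 1 and WT 3, while Prtn3 and Ctsg are not high in null 1.

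The spread of most bright members around their genotype means was wide beside that of other bright genes on these arrays. The residual SD had a median of 0.51 over the 10 members, dim Elane (0.16) included, beside 0.22 over the genes with a mean of at least 5. Of those 7070 genes, the residual SD of S100a9 lay at percentile 99.5, that of Lcn2 at 98.9, that of Camp at 97.1 and that of Ctsg at 95.4. Prtn3 alone of the bright members lay near the middle, at percentile 52.2. Without WT 3 and null 1, an alternative chosen after these arrays were seen to read highest, 0 of 10 members passed and the median difference was -0.05.

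Other lists were read for the order in which null 1 and WT 3 are highest, and no difference between lists was tested. The order was read from these arrays, and the lists were chosen with earlier results of these data known. Their counts therefore describe the lists and test nothing. Of 23 measured granule and mature neutrophil genes outside the members, 0 were higher and 0 lower in null HSCs, and 11 of the 14 with a mean of at least 5 had their highest values in null 1 and WT 3. Lyz1, a lysozyme gene, read 14.24 and 13.90 in null pools, against 14.16, 14.09 and 14.53 in WT pools. Chil3, which encodes a chitinase-like protein of myeloid cells, read 12.45 and 11.89 in null pools, against 12.07, 12.22 and 12.78 in WT pools. The same arrays were high for both, as for the members. Some genes of mature neutrophils were near the floor of the scale, among them the collagenase gene Mmp8, at 2.34 on both null arrays and 2.32 to 2.35 on WT arrays, and the chemokine receptor gene Cxcr2, at 2.81 and 2.82 in null pools and 2.78 to 2.86 in WT pools, both chosen after their values were seen. The summed level of this list ran from 14.54 to 14.99 in null pools and from 14.74 to 15.24 in WT pools.

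Genes of eosinophils, another granulocyte, were also high in the same pools. Prg2, which encodes the major basic protein of eosinophil granules, read 10.46 and 8.66 in null pools, against 8.93, 9.03 and 10.03 in WT pools. Epx, the eosinophil peroxidase gene, read 6.06 and 4.66 in null pools, against 4.79, 4.34 and 5.19 in WT pools. Prg3, a paralog of Prg2, read 6.01 and 4.44 in null pools, against 5.06, 5.09 and 5.86 in WT pools. These were the 3 bright genes among 5 measured, all 3 were highest in null 1 and WT 3, and 0 of 5 passed the criterion. The eosinophil receptor genes Il5ra and Ccr3 were near the floor on every array. Il5ra read 3.03 on both null arrays and 2.99 to 3.12 on WT arrays, and Ccr3 read 2.29 on both null arrays and 2.28 to 2.30 on WT arrays. The summed eosinophil level ran from 8.86 to 10.60 in null pools and from 9.14 to 10.17 in WT pools. The part of other granulocytes, or of their RNA, in the values of the members was not tested.

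Regulators of the granulocyte program were read next. Of 10 measured transcription factors and receptors of granulocyte development, 0 were higher and 0 lower in null HSCs, and 0 of the 6 bright ones had their highest values in null 1 and WT 3. Myb, a transcription factor of hematopoietic progenitors, read 9.91 and 10.08 in null pools, against 9.30, 9.79 and 9.66 in WT pools. Its null values lay above all WT values, but the difference of 0.41 fell short of the fold. Runx1, a core factor of blood formation, read 8.40 and 8.23 in null pools, against 8.26, 7.75 and 8.21 in WT pools. Cebpa, a factor that opens the granulocyte program, read near the floor, at 2.15 and 2.13 in null pools and 2.12 to 2.14 in WT pools, and was chosen here after its values were seen.

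Genes that process, package or inhibit the granule proteases did not pass either. Of 7 measured, 0 were higher and 0 lower in null HSCs, and 2 of 7 had the order of the members. Srgn, which encodes the proteoglycan serglycin that holds proteases in granules, read 13.14 and 13.05 in null pools, against 13.01, 13.30 and 13.03 in WT pools. Ctsc, the protease that activates elastase, proteinase 3 and cathepsin G, read 9.10 and 9.85 in null pools, against 9.70, 9.23 and 9.43 in WT pools. Null 1 had the lowest Ctsc value of the arrays. Of 11 other S100 family genes, 0 passed, and 1 of the 5 bright ones had the order of the members. S100a10, the partner of annexin A2, read 12.22 and 12.16 in null pools, against 12.13, 11.92 and 12.13 in WT pools, and S100a13 read 9.43 and 9.73 in null pools, against 9.49, 9.48 and 9.87 in WT pools. Of 5 genes listed as receptors of S100a8 and S100a9, 0 passed, and Tlr4, a Toll-like receptor bound by the heterodimer, read 6.45 and 6.87 in null pools, against 6.42 to 7.31 in WT pools. The other receptor genes, Ager, Cd69, Cd36 and Cd33, had values below 5 on every array.

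Among the remaining lists of cell markers, that of HSCs had 9 bright genes, and the others had 5 or fewer. Counts over so few genes say little about the order, and this holds for the 3 bright eosinophil genes too. Of the bright HSC markers 1 of 9 had its highest values in null 1 and WT 3, and their summed level ran from 13.63 to 13.84 in null pools and from 13.84 to 13.98 in WT pools. Of the bright monocyte and macrophage markers the count was 0 of 5, of megakaryocyte and platelet markers 0 of 4, and of B cell markers 1 of 2, that of the pre-B cell gene Vpreb1. Vcam1, an adhesion molecule of macrophages and stroma, read 9.02 and 8.86 in null pools, against 9.28, 8.86 and 8.67 in WT pools, and Pf4, a platelet chemokine, read 11.44 and 10.46 in null pools, against 11.29, 10.85 and 10.84 in WT pools. Null 1 was above null 2 for both, but WT 1 and not WT 3 was the highest WT pool. Erythroid, mast cell and T or NK cell markers each had 1 bright gene, Car2, Ms4a2 and Nkg7, and none of the 3 had the order. The summed level of mast cell and basophil markers, at 6.48 and 6.81 in null pools and 6.17 to 7.50 in WT pools, was highest in WT 3 but low in null 1. That of B cell markers, at 9.08 and 8.74 in null pools and 8.02 to 9.27 in WT pools, was highest in WT 3 and null 1. Over all these lists, 1 of 124 genes outside the members passed the criterion, where 4.48% of all genes passed with at least 1 probe set. This was Ptprc, which encodes the leukocyte antigen CD45, on a dimmer probe set, at 5.66 and 5.53 in null pools, against 7.26, 6.76 and 6.23 in WT pools (difference -1.16, SE 0.34, limma adjusted p = 0.777). Its brightest probe set went the other way, at 11.69 and 11.58 in null pools and 11.33 to 11.48 in WT pools. It was not called, because its difference of 0.23 fell short of the fold, so that the probe sets of Ptprc disagreed in direction. The call of the dimmer probe set ended without WT 2, without null 1 or without null 2.

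**Figure D4:**
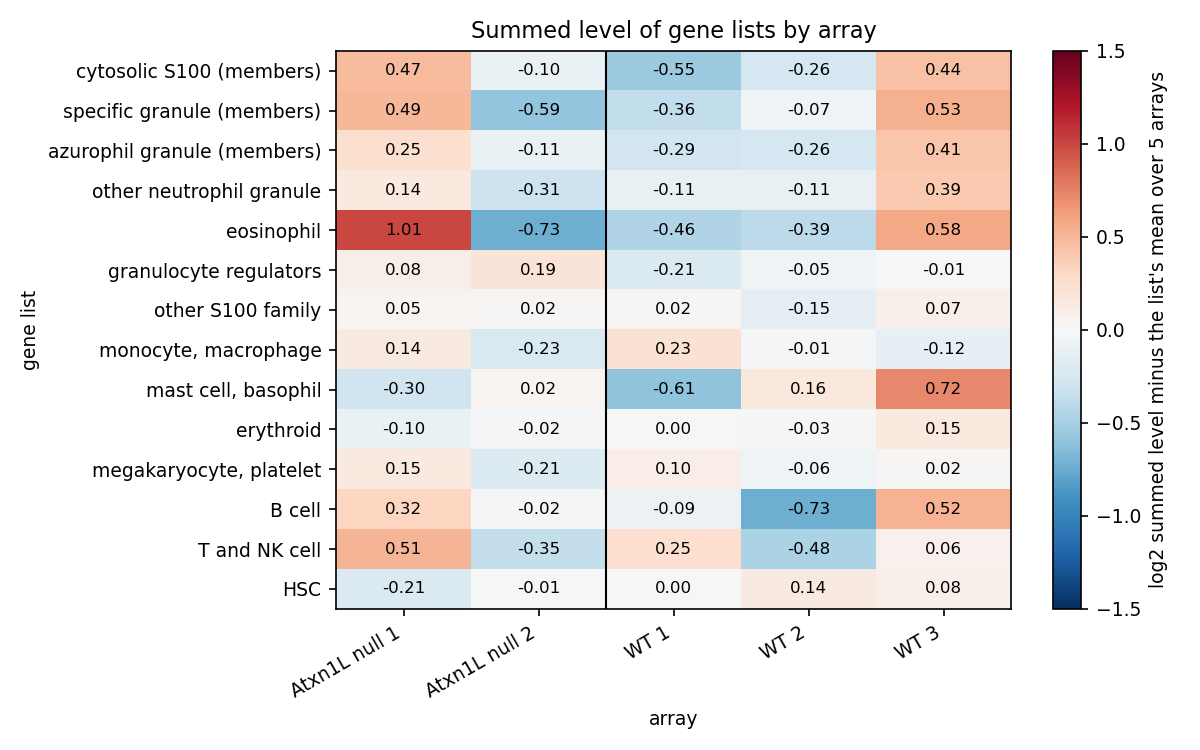
Log2 of the summed linear level of each gene list (vertical axis) on each array (horizontal axis), minus the mean of the list over the 5 arrays, as color and number. Null 1 and WT 3 are the highest arrays for all 3 lists of members (0.49 and 0.53 for specific granule genes) and for the other neutrophil genes. The same holds for the eosinophil genes (1.01 and 0.58), the B cell genes (0.32 and 0.52), and the other S100 genes by a narrow margin. The HSC list is lowest in null 1, at -0.21, but this sum mostly follows Procr, its brightest gene. Among its bright genes Kit, Procr and Abcb1a were lowest in null 1, while Tek, Fgd5 and Abcb1b were highest there.

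Genes outside the members with the pattern most like theirs were sought among 7061 genes with a mean of at least 5, by the root mean square difference from the average centred profile of the S100 and specific granule genes over the 5 arrays. The median of this difference was 0.51, and a gene with equal values on all arrays would have 0.47. The 5 closest were Cd177 at 0.10, Gm4951 at 0.10, Tyrobp at 0.14, Plscr4 at 0.17 and Lyz2 at 0.17. Cd177, which encodes a surface glycoprotein of neutrophils, read 5.54 and 4.75 in null pools, against 4.72, 4.90 and 5.70 in WT pools. Tyrobp, which encodes the signaling adaptor DAP12 of myeloid and NK cells, read 9.88 and 9.30 in null pools, against 9.08, 9.24 and 10.10 in WT pools. Lyz2, the lysozyme gene of myeloid cells, read 11.22 and 10.02 in null pools, against 10.33, 10.68 and 11.13 in WT pools. Cd177 and Lyz2 also stood in the list of other neutrophil genes, and Lyz1 and Lyz2 are close paralogs whose probes can share signal.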

How the data were processed

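RNA of HSCs pooled for each array was linearly amplified, labelled with biotin and hybridized to MOE430.2 arrays. The authors made the log2 values of the deposited table with GCRMA, which corrects background by probe sequence, normalizes the arrays by quantiles and summarizes the probes of each of 45101 probe sets. No source states the log base, which the range of the values gave. From these, 64 control probe sets were left out, 45037 were fitted with lmFit and eBayes in limma 3.58.1 under R 4.3.3 with a mean per genotype, and p-values were adjusted by Benjamini-Hochberg over all of them. The number of arrays limits the precision. Probe sets took their gene from the platform annotation (34945 had 1 gene, 932 several and 9160 none). For a gene outside the members, the probe set of highest mean gave the values and the order over the arrays, unless another is named. In the counts of passing genes over the lists, a gene passed if at least 1 of its own probe sets did. Promoters came from RefSeq GRCm38.p6 and matched all 10 members. The rule for named genes took all members, passing genes or else the 2 brightest of each other list, all genes of lists with at most 5 measured genes, the 5 most similar genes and Atxn1l, not all of which are named in the text. The members and lists were chosen with earlier results of these data known. Summed levels are sums of linear values, so that each follows the brightest genes of its list. The alternatives are given in the closing section.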

Additional observations from a re-analysis of the deposited data

How the results depend on the processing

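No member passed the criterion under any setting tried, among them each array left out in turn, and the signs of 7 of 10 differences turned with at least 1 array left out. With 1 array left out in turn the median of the member differences ran from -0.24 to 0.41, Camp from -0.76 to 0.50, Ngp from -0.40 to 0.42, Ltf from -0.46 to 0.34, Lcn2 from -0.54 to 0.41, Elane from -0.091 to 0.091, Ctsg from -0.21 to 0.42 and S100a9 from -0.011 to 1.38, while Mpo (0.27 to 0.95), S100a8 (0.03 to 0.50) and Prtn3 (-0.41 to -0.16) kept their sign. Array weights turned Elane to 0.053 and Ltf to 0.060, and renewed quantile normalization turned Ngp to -0.032. With the replicate number as a block, which cannot use WT 3, Camp was 0.10, Elane 0.091, Lcn2 0.35 and Ltf 0.16, and the median difference was 0.31. The numbers are not documented as a pairing. The deviations of same-numbered pools from their genotype means correlated at -0.033 for number 1 and -0.26 for number 2. With 2 null pools the null deviations mirror each other, so that these values cannot decide whether the numbers pair pools. Without WT 3 and null 1 together, chosen after seeing the data, Elane was 0.029, Ngp -0.14 and Ctsg 0.46. Of the 124 genes of the other lists, 1 passed in the reported fit, 3 with a variance trend and robust estimation, 7 with array weights, 2 without dim probe sets, 0 with the probe sets of a gene averaged, 2 with the replicate block, 0 at an adjusted p under 0.05, 7 without WT 3 and null 1 together, 2 without WT 1, 1 without WT 2, 2 without WT 3, 4 without null 1 and 6 without null 2, and the causes were not tested. Dim probe sets left out removed Elane, and suffixes of shared probe sets left out removed S100a8. Signals near the floor, as for Elane, limit what these arrays show.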
